A study of Mus musculus with 13 samples.

Results

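Thymic lymphomas of Atm-/- mice were compared with those of Rag2c/c p53-/- mice across the genes of chromosomes 1 to 19. The members were the 5 Atm-/- and the 5 Rag2c/c p53-/- lymphomas, 10 of the 13 RNA-seq libraries of the series. Each has a title of its own, but nothing in the labels says that the tumors came from separate mice, so p-values measure only the spread between these samples. Of the 43629 genes in the deposited table, 39116 lay on chromosomes 1 to 19, and 13636 were tested, those that reached a normalized count of 10 in 5 or more of the lymphomas. Genes of chromosomes X and Y were left out.

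The Atm-/- mice, which lack ATM, were of strain 129S6/SvEv. The Rag2c/c p53-/- mice, labelled as a mixed background of C57BL/6 and 129S6/SvEv, carried the core Rag2 allele, without the RAG2 C-terminus, on both chromosomes together with loss of p53. The remaining 3 libraries, from normal thymus of C57BL/6 WT mice, were re-used from another series and are shown beside the lymphomas only for reference. Total RNA came from single-cell suspensions, and polyadenylated RNA was sequenced with a stranded kit.

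Strain and genotype cannot be told apart in this comparison, and neither can the core Rag2 allele and the loss of p53, which the same 5 mice carried. The labels gave neither age nor sex. Ddx3y, a gene of chromosome Y, was read at 263 to 2379 in 5 of 5 Rag2c/c p53-/- lymphomas but in 2 of 5 Atm-/- lymphomas (replicates 4 and 5), so sex was unequal between the groups as well. In bulk tissue, fewer cells of a type and less RNA per cell cannot be told apart.

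ATM is the kinase that is activated at DNA double-strand breaks, including those made by the RAG recombinase during V(D)J recombination in thymocytes, and it phosphorylates p53 among many targets. p53 is the transcription factor that induces cell-cycle arrest and death genes after damage. The C-terminus of RAG2 is dispensable for cutting but holds the RAG complex on the broken ends, and loss of either ATM or this C-terminus with p53 leads to thymic T cell lymphomas in mice.

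The values are normalized counts, that is, reads per gene scaled so that libraries can be compared. The depth was estimated at 6370000 to 24710000 reads per lymphoma, and 17325 to 20188 genes were above 0. The shallowest libraries were Rag2c/c p53-/- replicate 2 (6370000 reads) and Atm-/- replicate 2 (9240000 reads). Markers of T cells were high throughout: the T lineage factor Tcf7 read 37415 to 63832 and the T cell kinase Lck 15165 to 30142 over the 10 lymphomas. The 8 listed B cell genes, tested or not, summed to only 214 to 601. Pearson correlations of log2 values over the tested genes were 0.907 to 0.967 within Atm-/- (10 pairs), 0.902 to 0.960 within Rag2c/c p53-/- (10 pairs) and 0.841 to 0.932 between the groups (25 pairs).

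Transcription differed broadly between the lymphomas. A gene was called changed at an adjusted p under 0.05 (limma on log2 values, two-sided, Benjamini-Hochberg over all tested genes), a log2 difference of 1 or more in size and, in either group, a mean of 10 or more. By this rule 327 genes were higher and 389 lower in Atm-/- lymphomas, together 716 of 13636 or 5.25% (2.4% higher, 2.85% lower). The median log2 difference was 2.10 among the higher and -2.41 among the lower genes, against 0.02 over all tested genes. By the adjusted p alone, with any fold, 913 genes or 6.7% passed. In 576 of the 716 genes (4.22% of those tested) the 5 values of a group all lay on the same side of those of the other group, which was the case for 8.59% of all tested genes. The number of calls depended on single tumors: it was 409 without Atm-/- replicate 1, 471 and 475 without Atm-/- replicates 4 and 5, and 469 and 476 without Rag2c/c p53-/- replicates 1 and 5. With presence of Ddx3y as a covariate 246 genes were called, and 220 of them were among the 716. Since 5 of 5 Rag2c/c p53-/- lymphomas have Ddx3y, that fit rests on the 2 Atm-/- lymphomas that have it, and a call lost in it does not show an effect of sex.

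Among the changed genes with non-overlapping groups, the highest difference was that of BC018473 (ENSMUSG00000056032, chr11:116752167-116759373 in GRCm38), a transcript annotated as antisense. BC018473 read 7460, 3556, 7617, 5761 and 8663 in the Atm-/- lymphomas and 12, 20, 21, 13 and 23 in the Rag2c/c p53-/- lymphomas, a log2 difference of 8.44 ± 0.29 (SE, adjusted p = 2.5e-08). It read 4 to 8 in WT thymus, so the Atm-/- lymphomas stood apart from both other groups. Its neighbours rose with it. St6galnac2 and St6galnac1, sialyltransferases that modify O-glycans, flank it on chromosome 11. St6galnac2 read 490, 84, 512, 566 and 485 in Atm-/- against 6, 17, 8, 6 and 4 in Rag2c/c p53-/- lymphomas (log2 difference 5.43 ± 0.57, adjusted p = 0.00019). St6galnac1, chosen after its values were seen, read 38, 11, 62, 23 and 31 against 1, 0, 0, 0 and 0 (adjusted p = 0.00024).

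Adam11, of the ADAM family of membrane proteins, read 341, 731, 927, 797 and 701 in Atm-/- and 11, 3, 32, 22 and 19 in Rag2c/c p53-/- lymphomas (log2 difference 5.48 ± 0.54, adjusted p = 0.00011), and 127 to 202 in WT thymus.

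Slc30a2, a zinc transporter, read 424, 190, 223, 45 and 333 in Atm-/- and 2, 3, 11, 3 and 1 in Rag2c/c p53-/- lymphomas (log2 difference 5.57 ± 0.65, adjusted p = 0.00041). Myh7b, a myosin heavy chain, read 321, 178, 268, 325 and 297 against 8, 3, 5, 34 and 5 (log2 difference 5.0 ± 0.54, adjusted p = 0.00024). Both were near 0 in WT thymus, with at most 4 counts. Cyp2b23, a cytochrome P450, read 147, 1427, 580, 124 and 846 against 73, 10, 11, 3 and 2 (log2 difference 5.34 ± 0.93, adjusted p = 0.0062), a call that was lost with Ddx3y as a covariate (adjusted p = 0.088).

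Several genes were close to silent in every Rag2c/c p53-/- lymphoma. Emx2, a homeobox factor of the developing brain and urogenital tract, read 103, 27, 758, 73 and 13 in Atm-/- lymphomas and 0 in 5 of 5 Rag2c/c p53-/- lymphomas and in WT thymus. Against a floor of 3 reads per library it was at least 42.5-fold higher (adjusted p = 0.0018). Most of this comes from Atm-/- replicate 3, without which the bound is 11.8-fold. Olfr315, an olfactory receptor gene, read 26, 674, 64, 463 and 45 against 0, 0, 1, 0 and 0 (adjusted p = 0.00083). Adam2, a sperm surface gene, read 125, 139, 14, 427 and 26 against 0, 0, 8, 0 and 8 (adjusted p = 0.015), a call lost with Ddx3y as a covariate (adjusted p = 0.088). The non-coding gene RP23-211F21.3, known by its clone name, read 452, 18, 527, 160 and 494 against 1 to 7 (log2 difference 5.32 ± 0.87, adjusted p = 0.0047).

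**Figure D1:**
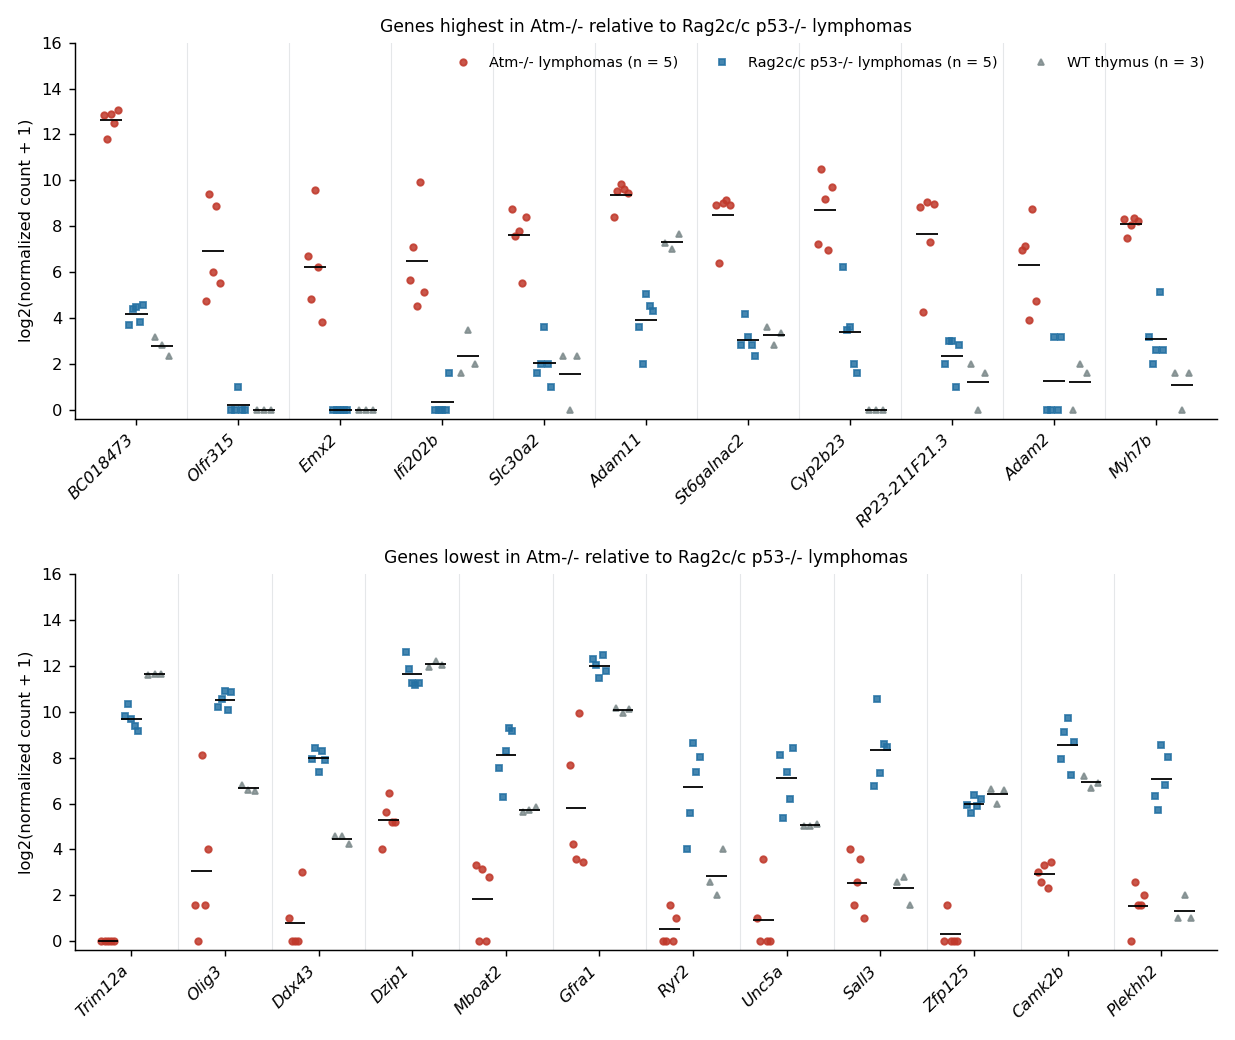
Normalized counts, as log2(value + 1), of named changed genes, those most raised (upper panel) and the 12 most lowered (lower panel) in Atm-/- lymphomas, for each Atm-/- lymphoma (circles), Rag2c/c p53-/- lymphoma (squares) and WT thymus (triangles), with a bar at each group's mean. Only genes in which the groups of lymphomas do not overlap could be chosen for this figure. WT thymus lies at 0 for Olfr315, Emx2 and Cyp2b23 but above both lymphoma groups for Trim12a.

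In the opposite direction, Trim12a (ENSMUSG00000066258, chr7:104299894-104315466), a member of the TRIM family of antiviral ubiquitin ligases, read 0 in 5 of 5 Atm-/- lymphomas, 911, 1297, 830, 662 and 568 in Rag2c/c p53-/- lymphomas and 3122 to 3258 in WT thymus. Against the floor of 3 reads it was at least 189-fold lower in Atm-/- lymphomas (adjusted p = 2.5e-08). The neighbouring Trim5 read 1, 2, 2, 6 and 0 against 23, 257, 69, 28 and 68 (log2 difference -4.54 ± 0.71, adjusted p = 0.0034), and Trim34a, whose interval spans both, read 21 to 54 against 77 to 257 (log2 difference -1.94 ± 0.41, adjusted p = 0.016). Trim12c, a close copy at the other side of Trim12a, read 673 to 1044 against 384 to 708, a log2 difference of 0.83 ± 0.20 that stayed under the fold threshold. The call of Trim34a was lost with Ddx3y as a covariate (adjusted p = 0.097). Trim5, Trim34a and Trim12c were chosen after their values were seen.

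Other genes were lower by a similar amount. Olig3, a basic helix-loop-helix factor of the neural tube, read 2, 0, 281, 2 and 15 in Atm-/- and 1180, 1496, 1952, 1071 and 1864 in Rag2c/c p53-/- lymphomas (log2 difference -7.46 ± 1.22, adjusted p = 0.0045), against 93 to 111 in WT thymus. Sall3, a zinc finger factor, read 15, 2, 5, 11 and 1 against 107, 1500, 158, 390 and 348 (log2 difference -5.78 ± 0.77, adjusted p = 0.0011). WT thymus held 2 to 6, so for Sall3 it was the Rag2c/c p53-/- lymphomas that stood apart. Gfra1, a receptor for GDNF, read 207, 18, 11, 993 and 10 against 4984, 4269, 2882, 5632 and 3548 (log2 difference -6.23 ± 1.1, adjusted p = 0.0071) and lost its call with Ddx3y as a covariate (adjusted p = 0.11).

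Unc5a, a netrin receptor, read 1, 0, 11, 0 and 0 against 278, 41, 166, 72 and 339 (log2 difference -6.18 ± 0.81, adjusted p = 0.0011). Camk2b, a calcium-dependent kinase of neurons, read 7, 5, 9, 4 and 10 against 247, 551, 857, 153 and 409 (log2 difference -5.61 ± 0.48, adjusted p = 4.08e-05). Ryr2, the cardiac calcium release channel, read 0, 0, 2, 0 and 1 against 15, 47, 404, 163 and 260 (adjusted p = 0.0011). These 3 genes read at most 11 in any Atm-/- lymphoma and varied several-fold among the Rag2c/c p53-/- lymphomas.

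A narrower spread marked Ddx43, an RNA helicase of germ cells, at 1, 0, 0, 0 and 7 against 246, 338, 167, 310 and 240 (log2 difference -7.19 ± 0.59, adjusted p = 3.28e-05). Zfp125, a zinc finger gene, read 0, 2, 0, 0 and 0 against 60, 47, 82, 59 and 72 (adjusted p = 2.49e-05), and 62 to 98 in WT thymus. Mboat2, a phospholipid acyltransferase, read 9, 0, 8, 0 and 6 against 187, 78, 314, 637 and 565 (log2 difference -6.26 ± 0.83, adjusted p = 0.0011). Plekhh2 read 0, 5, 2, 2 and 3 against 80, 51, 376, 112 and 264 (log2 difference -5.54 ± 0.64, adjusted p = 0.00038).

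The remaining genes of lowest adjusted p combined a moderate difference with little spread. Tagap1, a T cell gene, read 277, 272, 282, 226 and 277 in Atm-/- and 2097, 3887, 2399, 1537 and 1929 in Rag2c/c p53-/- lymphomas (log2 difference -3.08 ± 0.23, adjusted p = 1.73e-05). Ndufs5, a subunit of respiratory complex I, read 231, 247, 326, 258 and 245 against 1319, 2408, 1133, 1481 and 1454 (log2 difference -2.53 ± 0.21, adjusted p = 3.41e-05). WT thymus read 1829 to 2050 for Tagap1 and 612 to 715 for Ndufs5, which placed it with the Rag2c/c p53-/- lymphomas for the former and between the groups for the latter.

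More generally, the WT mean lay nearer the Rag2c/c p53-/- mean for 515 of the 716 changed genes (71.9%), against 57.6% of all 13636 tested genes. It lay outside both lymphoma means for 402 of the 716. WT thymus shares C57BL/6 with the Rag2c/c p53-/- mice, and the part of strain in this count was not tested.

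Of the genes altered in these mice, Trp53, which encodes p53, read 6853, 11318, 9340, 10202 and 6955 in Atm-/- and 2616, 5461, 2018, 3863 and 3884 in Rag2c/c p53-/- lymphomas (log2 difference 1.38 ± 0.26, adjusted p = 0.010). The groups did not overlap, and reads of Trp53 were present in 5 of 5 p53-/- lymphomas, beside 4387 to 6341 in WT thymus. Atm read 732, 208, 445, 568 and 534 against 1248, 439, 1315, 552 and 1154 (log2 difference -0.89 ± 0.40, adjusted p = 0.21), and Rag2 read 279, 1025, 265, 521 and 46 against 790, 260, 537, 410 and 695 (log2 difference -0.82 ± 0.68, adjusted p = 0.54). Whole-gene values do not show which exons were read, so they are no check of the deleted parts of these alleles. With Ddx3y as a covariate the Trp53 call was lost (log2 difference 1.32, adjusted p = 0.10).

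Of 32 genes known as p53 targets 31 were tested, and 3 rose and none fell in Atm-/- lymphomas (9.68%, against 2.4% of all tested genes called higher). Their median log2 difference was 0.15, beside 0.02 over all genes. This list, like the gene lists below, was chosen with earlier results of these data known. Phlda3, a brake on AKT signalling, read 268, 831, 234, 380 and 394 in Atm-/- and 126, 51, 76, 144 and 55 in Rag2c/c p53-/- lymphomas (log2 difference 2.18 ± 0.41, adjusted p = 0.010). Psrc1, a microtubule protein, read 575, 909, 482, 793 and 585 against 309, 321, 166, 297 and 288 (log2 difference 1.27 ± 0.25, adjusted p = 0.012). Ccng1, cyclin G1, read 2944, 2793, 2598, 2514 and 3423 against 2112, 1104, 1567, 1599 and 907 (log2 difference 1.02 ± 0.22, adjusted p = 0.017). The groups did not overlap in any of the 3. The call of Ccng1 was lost without any one of Atm-/- replicate 5 and Rag2c/c p53-/- replicates 2 and 5.

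The best known targets did not pass. Cdkn1a, the p21 inhibitor of cyclin-dependent kinases, read 329, 1320, 957, 827 and 1024 against 960, 453, 634, 1015 and 760 (log2 difference 0.15 ± 0.36, adjusted p = 0.86). Mdm2, the ubiquitin ligase of p53, read 1883 to 2310 against 1846 to 2556 (log2 difference -0.04 ± 0.13). The death gene Bax read 1031, 2950, 1177, 1970 and 1487 against 619, 1344, 723, 906 and 879 (log2 difference 0.89 ± 0.30, adjusted p = 0.099). Trp53inp1, the member with the highest mean, read 3369 to 6369 against 5998 to 11891 (log2 difference -0.83 ± 0.23, adjusted p = 0.051), and Zmat3 read 527 to 2110 against 356 to 449 without overlap (log2 difference 1.19 ± 0.33, adjusted p = 0.056). With Ddx3y as a covariate no p53 target was called, with an adjusted p of 0.092 for Phlda3, 0.090 for Psrc1 and 0.11 for Ccng1, while the log2 differences were 2.21, 1.34 and 1.07.

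The promoters of these targets were searched for the 10-base p53 recognition decamer in the RefSeq windows of GRCm38.p6, from 250 bases before to 50 after each start, on both strands. A match was found for 10 of the 23 targets with a window (43.5%), and for 9.55% of all 27025 genes with a window. It was found for 33 of 441 changed genes (7.48%) and for 725 of 9390 tested genes (7.72%). Ccng1 was the only changed target with a match. Its stretch is shown with those of Bax and Cdkn1a, which hold matches and were not called. Each stretch lies before the start, is written 5′ to 3′ on the strand of the gene, and has the matches in capitals. They lie at chr11:40755422-40755511 on the minus strand for Ccng1, chr7:45467050-45467139 on the minus strand for Bax and chr17:29090866-29090977 on the plus strand for Cdkn1a.
Ccng1: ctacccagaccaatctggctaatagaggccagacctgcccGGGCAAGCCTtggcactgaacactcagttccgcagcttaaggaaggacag
Bax: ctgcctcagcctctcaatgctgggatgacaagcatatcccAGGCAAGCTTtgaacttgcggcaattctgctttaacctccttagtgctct
Cdkn1a: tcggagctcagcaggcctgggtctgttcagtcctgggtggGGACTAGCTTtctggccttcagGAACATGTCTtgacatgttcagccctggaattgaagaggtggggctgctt
A match of letters is a description and does not show binding.

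Among 21 tested G1 cyclins, kinases and inhibitors, 2 fell in Atm-/- lymphomas and none rose. This was 9.52%, against 2.85% of all tested genes called lower. Both are the neighbouring tumor suppressor genes of chromosome 4. Cdkn2a, which encodes the p16 kinase inhibitor and ARF, the inhibitor of Mdm2, read 213, 489, 3808, 243 and 607 in Atm-/- and 4577, 6197, 3759, 5542 and 4036 in Rag2c/c p53-/- lymphomas (log2 difference -3.06 ± 0.64, adjusted p = 0.017), against 3 to 4 in WT thymus. Cdkn2b, the p15 inhibitor, read 8, 9, 26, 15 and 9 against 76, 34, 51, 47 and 62 (log2 difference -2.02 ± 0.41, adjusted p = 0.014). Atm-/- replicate 3 alone reached the level of the other group for Cdkn2a, and it was also the highest of the 5 for Cdkn2b. With Ddx3y as a covariate the log2 differences were -3.62 and -2.07, and neither was called (adjusted p = 0.068 and 0.11). In the 7 lymphomas with Ddx3y alone, an alternative chosen after seeing the data, Cdkn2a was called (adjusted p = 0.003) and Cdkn2b was not (adjusted p = 0.091).

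The D cyclins of these tumors varied. Ccnd1 read 282, 27, 3068, 41 and 583 in Atm-/- and 5986, 7248, 1290, 1939 and 4476 in Rag2c/c p53-/- lymphomas (log2 difference -3.93 ± 1.12, adjusted p = 0.060), and Ccnd2 read 1878, 1471, 510, 109 and 1088 against 158, 274, 143, 53 and 115 (log2 difference 2.41 ± 0.71, adjusted p = 0.067). Neither passed the threshold, and the groups overlapped in both. Ccnd3, the member with the highest mean, read 7919 to 30135 against 14007 to 17281 (log2 difference 0.01 ± 0.29).

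**Figure D2:**
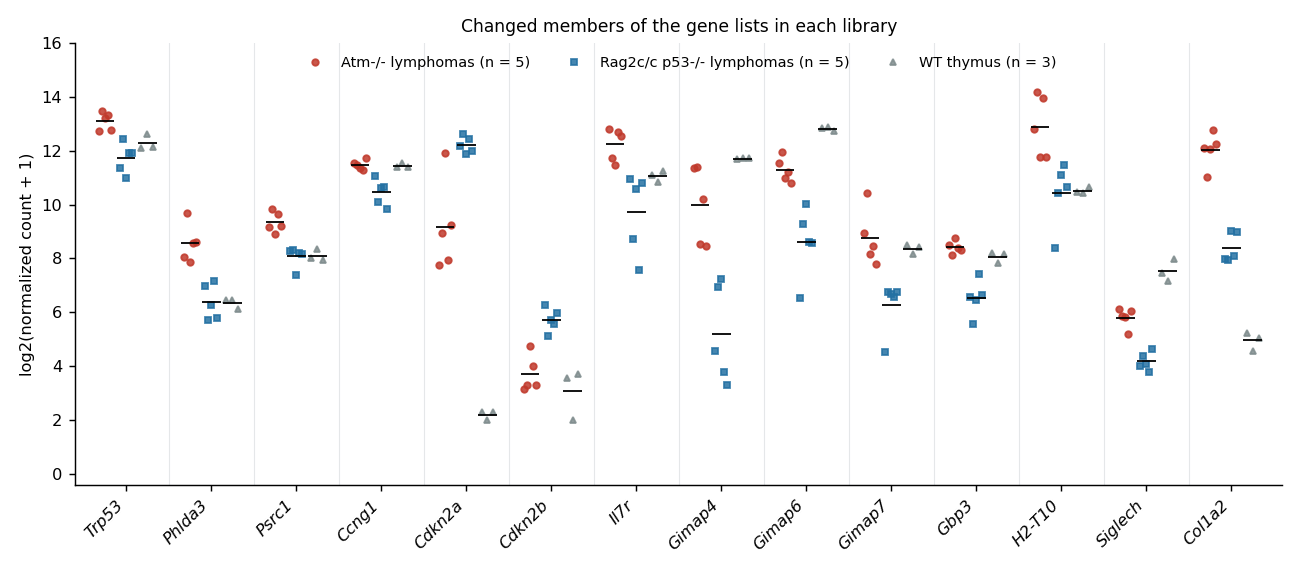
Normalized counts, as log2(value + 1), of Trp53 and of changed members of the gene lists in each Atm-/- lymphoma (circles), Rag2c/c p53-/- lymphoma (squares) and WT thymus (triangles), with a bar at each group's mean. Cdkn2a is the only one of these genes in which a lymphoma of one group, Atm-/- replicate 3, reaches the values of the other.

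Thymocyte stage genes differed in few members. Of 14 tested early thymocyte genes 1 rose (7.14%, against 2.4% of all tested genes called higher). This was Il7r, the receptor chain through which interleukin 7 keeps precursors alive. It read 7078, 3387, 2860, 6581 and 5901 in Atm-/- and 1967, 426, 1512, 188 and 1790 in Rag2c/c p53-/- lymphomas (log2 difference 2.52 ± 0.61, adjusted p = 0.032). The groups did not overlap, but the call was lost without any one of Atm-/- replicates 1, 4 and 5 and Rag2c/c p53-/- replicate 2. It was lost with Ddx3y as a covariate as well (adjusted p = 0.12). Over all alternatives the log2 difference was 1.98 to 2.88.

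Of 12 double-positive thymocyte genes none was called, with a median log2 difference of -0.44. The coreceptor gene Cd8a read 6145, 20872, 9366, 7257 and 5674 in Atm-/- and 14721, 23709, 16319, 16564 and 16374 in Rag2c/c p53-/- lymphomas (log2 difference -0.99 ± 0.31, adjusted p = 0.085), and Cd4 read 8127, 11240, 17284, 1201 and 15187 against 25455, 16748, 10906, 5470 and 11447 (log2 difference -0.67 ± 0.67, adjusted p = 0.62). Aqp11 and Mns1 passed the adjusted p (0.0074 and 0.030) without overlap but not the fold threshold, at log2 differences of -0.96 and -0.69. Satb1, the member with the highest mean, read 10110 to 19331 against 10821 to 22688.

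The recombinase genes and Dntt, terminal transferase, gave no call among 5 tested. Rag1 read 6304, 5755, 5496, 7116 and 2383 in Atm-/- and 11239, 5620, 23493, 8465 and 18170 in Rag2c/c p53-/- lymphomas (log2 difference -1.22 ± 0.40, adjusted p = 0.096), all under the 48182 to 70834 of WT thymus. Dntt read 5241 to 12795 against 8740 to 14163. None of 14 end joining genes, which repair RAG breaks, and none of 22 damage sensing and checkpoint genes was called, with median log2 differences of 0.06 and -0.03. Xrcc6, the Ku70 subunit, read 15921 to 21818 against 10864 to 20011 (log2 difference 0.14 ± 0.18), and H2afx 5174 to 11649 against 5579 to 12520 (log2 difference 0.12 ± 0.26).

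The Notch pathway, in which the cleaved receptor drives target genes and which is a common driver of thymic lymphomas, gave no call among 13 tested genes, and the tumors of a group were far apart. Notch1 read 45260, 62925, 5365, 28906 and 5481 in Atm-/- and 11569, 11902, 26815, 16700 and 15039 in Rag2c/c p53-/- lymphomas (log2 difference 0.28 ± 0.67, adjusted p = 0.86). The direction of this small difference flipped without Atm-/- replicate 1 or 2. Among the tested targets, Dtx1, Hes1 and Ptcra, picked outside the naming rule, followed the same division among the Atm-/- tumors. Dtx1 read 8025, 16369, 144, 10894 and 664, Hes1 1221, 5520, 211, 3418 and 248, and Ptcra 1134, 8050, 143, 5456 and 243. Replicates 3 and 5 were the lowest of the 5 in Notch1, Dtx1, Hes1 and Ptcra. Myc, of the same list, varied far less, at 8632, 8817, 6681, 11860 and 5936.

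Known oncogenes and suppressors of T cell leukemia gave no call among 26 tested. The member furthest above the median of the other 9 lymphomas was Notch1 in Atm-/- replicate 2 (62925 against a median of 15039). In Atm-/- replicate 4 it was Bcl2, at 690 against a median of 243 and at most 546 in the other lymphomas, but under the 2911 to 3157 of WT thymus. In Rag2c/c p53-/- replicate 1 it was Mycn, at 35 against at most 3 in the other lymphomas but 68 to 93 in WT thymus, and in replicate 4 Lef1, at 13625 against 7082, a level that Atm-/- replicates 2 and 4 exceeded. In 5 further lymphomas it was Tal2, Hoxa9 or Tal1 at 2 to 3 counts, a level of about 1 to 3 reads from which no difference is read.

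Immune GTPases formed the list with the largest share called. Gimap genes regulate lymphocyte survival. Of 8 genes, 3 were higher in Atm-/- than in Rag2c/c p53-/- lymphomas (37.5%, against 2.4% of all tested genes called higher). The median log2 difference over the 8 was 1.63. The list was chosen with earlier results of these data known, so its share is only a description. Gimap4 read 2591, 2651, 371, 1192 and 352 in Atm-/- and 23, 122, 152, 13 and 9 in Rag2c/c p53-/- lymphomas (log2 difference 4.8 ± 0.88, adjusted p = 0.0088). Gimap6 read 2972, 3910, 2049, 2371 and 1789 against 92, 625, 1026, 388 and 384 (log2 difference 2.69 ± 0.52, adjusted p = 0.012), and Gimap7 read 496, 1368, 284, 350 and 219 against 22, 108, 101, 93 and 108 (log2 difference 2.50 ± 0.56, adjusted p = 0.024). They are neighbours on chromosome 6, between 48684549 and 48724636. WT thymus read 3273 to 3391 for Gimap4 and 6711 to 7553 for Gimap6, above every lymphoma of both groups. For Gimap7 it read 283 to 358, within the Atm-/- values. Gimap9, with the highest mean, read 2292 to 4307 against 1365 to 3219 (log2 difference 0.50 ± 0.23, adjusted p = 0.23), and Gimap3 was low in both groups, at 13 to 80 against 15 to 47, beside 978 to 1048 in WT thymus. With Ddx3y as a covariate no Gimap gene was called, with an adjusted p of 0.12, 0.13 and 0.25 for Gimap4, Gimap6 and Gimap7. The call of Gimap7 was also lost without Atm-/- replicate 1.

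**Figure D3:**
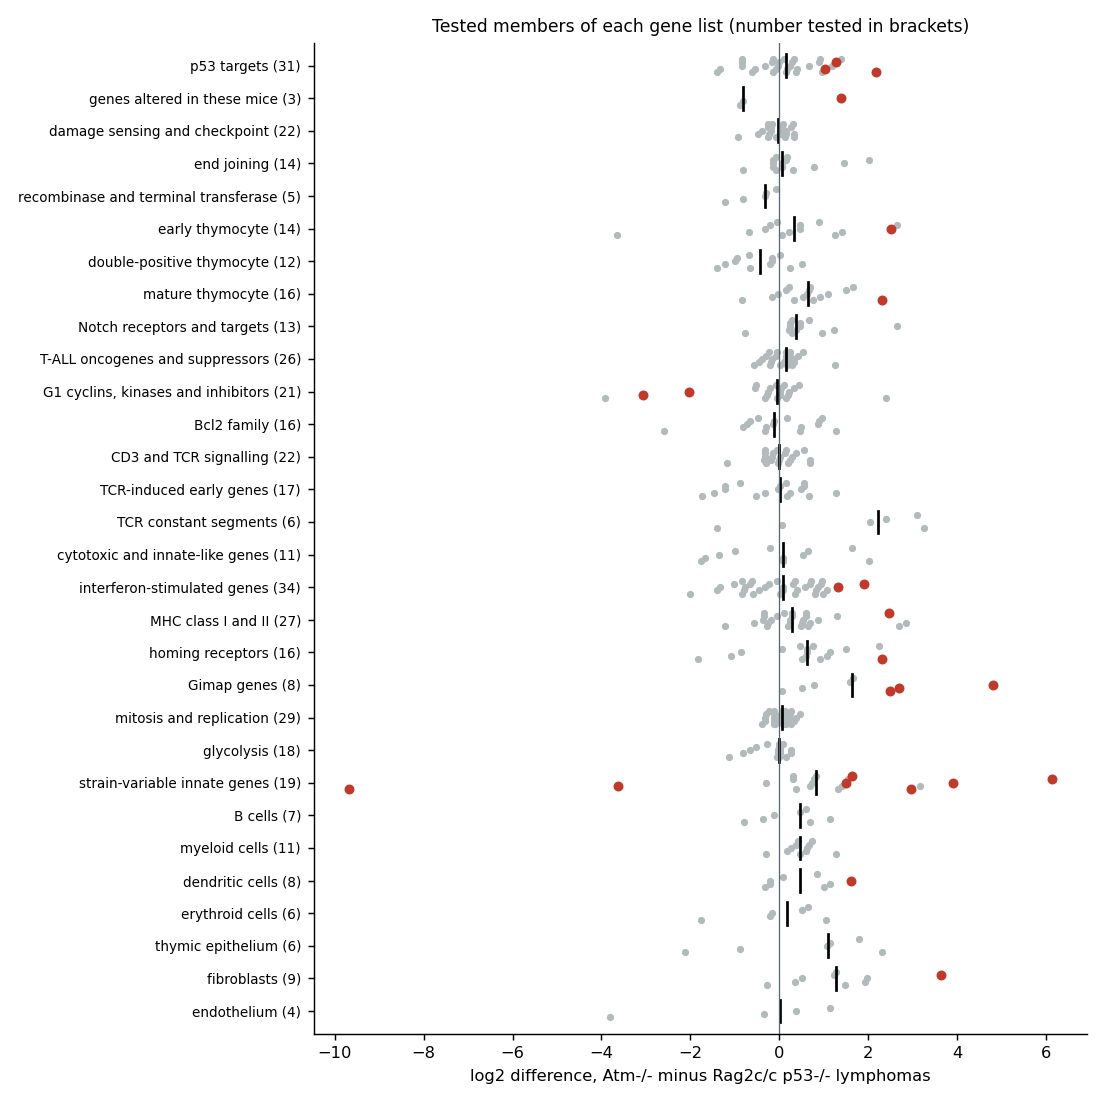
Log2 difference between Atm-/- and Rag2c/c p53-/- lymphomas of each tested member of the 30 gene lists (points; red where the gene was called changed), with a bar at the median of each list. Called members lie on both sides of 0 only among the strain-variable innate genes, and 18 of the 30 lists have no called member.

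A list of innate immune genes known to vary between mouse strains was called in 7 of 19 members, 5 higher and 2 lower. This was 36.8%, against 5.25% of all tested genes. The list was chosen with earlier results of these data known, so its share is only a description. Its median log2 difference was 0.83 whether Trim12a was taken as fitted or at its bound. Ifi203 and Ifi202b belong to the interferon-inducible p200 family of DNA sensors. Ifi203 read 2853, 5974, 2627, 6222 and 1701 in Atm-/- and 179, 88, 156, 637 and 403 in Rag2c/c p53-/- lymphomas (log2 difference 3.90 ± 0.53, adjusted p = 0.0014), and Ifi202b read 49, 135, 22, 966 and 34 against 0, 0, 0, 0 and 2 (adjusted p = 0.0023). The family members share sequence, and Ifi203 overlaps Mndal on the same strand, so reads may be split between them.

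Trim30a, a TRIM ligase, read 752, 779, 521, 825 and 449 against 241, 263, 163, 141 and 255 (log2 difference 1.64 ± 0.26, adjusted p = 0.0035). Its neighbour Trim30d went the other way, at 2, 0, 2, 2 and 3 against 27, 41, 32, 25 and 29 (log2 difference -3.62 ± 0.45, adjusted p = 0.00065), beside 211 to 380 in WT thymus. Wdfy1, an endosomal adaptor, read 731, 674, 633, 464 and 926 against 363, 274, 238, 141 and 215 (log2 difference 1.5 ± 0.27, adjusted p = 0.0077). Trim30a and Wdfy1 were not called with Ddx3y as a covariate (log2 differences 1.56 and 1.48, adjusted p = 0.065 and 0.089). Wdfy1 was chosen after its values were seen. The genotype and the strain move together in each of these genes, and the share of either cannot be told apart.

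Interferon-inducible guanylate binding proteins of chromosome 3 were together higher in Atm-/- than in Rag2c/c p53-/- lymphomas. Gbp7 read 994, 834, 931, 914 and 812 in Atm-/- and 391, 206, 171, 212 and 151 in Rag2c/c p53-/- lymphomas (log2 difference 2.06 ± 0.24, adjusted p = 0.00045), Gbp3 read 364, 281, 436, 338 and 319 against 93, 47, 88, 171 and 98 (log2 difference 1.90 ± 0.32, adjusted p = 0.0054), and Gbp2b read 148, 274, 231, 216 and 127 against 25, 17, 21, 53 and 15 (log2 difference 2.97 ± 0.39, adjusted p = 0.0011). The last of these is the strain-variable list member Gbp2b, matched by the identifier ENSMUSG00000040264, which the deposited table names Gbp5. Its interval in the table spans Gbp7 and Gbp3 on the same strand, which leaves the division of reads between them uncertain. Gbp7 was chosen after its values were seen. WT thymus read 2157 to 2249 for Gbp7, above every lymphoma of both groups. It read 227 to 294 for Gbp3 and 244 to 329 for Gbp2b. Gbp3 and Xaf1 were the only called members of 34 interferon-stimulated genes (5.88%), a share close to the 5.25% of all genes. Xaf1 read 406 to 600 against 119 to 517, and its call was lost without any one lymphoma other than Rag2c/c p53-/- replicate 2. Neither Gbp3 nor Xaf1 was called with Ddx3y as a covariate (log2 differences 1.83 and 1.15, adjusted p = 0.079 and 0.28).

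Of 27 MHC class I and II genes 1 rose (3.7%, against 2.4% of all tested genes called higher). It was H2-T10, annotated as a polymorphic pseudogene, at 7087, 18232, 3428, 15861 and 3442 against 338, 1361, 2212, 2814 and 1615 (log2 difference 2.47 ± 0.63, adjusted p = 0.039). Class I genes are near-identical and differ between strains, so this value is uncertain, and the call was lost with Ddx3y as a covariate (adjusted p = 0.21) and without any one of Atm-/- replicates 1, 2 and 4 and Rag2c/c p53-/- replicates 1, 2, 3 and 5. No member was called of the 22 CD3 and TCR signalling genes, 16 Bcl2 family genes, 17 early genes induced by the TCR, 29 mitosis and replication genes, 18 glycolysis genes, 11 cytotoxic genes or 6 tested TCR constant segments. Among their members with the highest mean, Lck read 15165 to 23441 in Atm-/- and 17062 to 30142 in Rag2c/c p53-/- lymphomas, Myc 5936 to 11860 against 5968 to 8055, and Top2a 12626 to 26212 against 14381 to 19154. The 6 TCR constant segments, though not called, had a median log2 difference of 2.22, the largest of the 30 lists. Of these segments 5 were positive and 1 negative (-1.41 to 3.25), and the median was 1.08 to 2.45 over all alternatives.

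The position of changed genes was uneven along the genome. On chromosome 14, 67 of 487 tested genes were changed (13.8%), 34 higher and 33 lower. The share was 6.36% on chromosome 4 and 2.06% to 6.35% on the 17 chromosomes other than 4 and 14. Chromosome 14 carries the T cell receptor alpha and delta genes. Most of the higher genes lay on the centromeric side of these and most of the lower genes on the telomeric side. In the 10 Mb on the centromeric side of Trac (chr14:54220521-54223097), the alpha constant gene, 24 of 61 tested genes were higher in Atm-/- lymphomas and none lower (39.3%). Their median log2 difference relative to all genes was 1.19. Over the whole centromeric side 29 of 205 genes were higher and 3 lower, so few lay further out. The bin medians there were 0.44 at 10 to 20 Mb from Trac, 0.41 at 20 to 30 Mb, -0.31 at 30 to 40 Mb and -0.20 at 40 to 50 Mb. On the telomeric side 25 of 256 genes were lower and 4 higher, with a median of -0.64 that was between -0.52 and -0.80 in 6 of the 7 bins of 10 Mb.

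Relative to WT thymus, the median level of the 61 centromeric genes was 1.28, 1.56, 1.28, 1.77 and 1.05 on the log2 scale in the Atm-/- lymphomas and 0.10, -0.25, 0.42, -0.29 and 1.03 in the Rag2c/c p53-/- lymphomas. The Atm-/- lymphomas were above WT in 5 of 5, and Rag2c/c p53-/- replicate 5 came close to the lowest of them. The 256 telomeric genes stood at -0.88, -0.14, -0.16, -0.36 and -0.92 in Atm-/- and 0.23, 0.21, -0.01, 0.16 and 0.16 in Rag2c/c p53-/- lymphomas. Atm-/- replicates 1 and 5 were the lowest there. DNA copy number was not measured in these files, and its part in the pattern was not tested.

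Single genes of the centromeric side shared the high level of Rag2c/c p53-/- replicate 5. Mettl3, the RNA methyltransferase for m6A, read 4869, 7166, 5428, 6985 and 6209 in Atm-/- and 1757, 1918, 1847, 1284 and 4591 in Rag2c/c p53-/- lymphomas (log2 difference 1.56 ± 0.29, adjusted p = 0.0090). Chd8, a chromatin remodeler, read 13635, 17072, 14103, 18595 and 16760 against 7660, 7211, 7571, 4857 and 14091 (log2 difference 1.03 ± 0.24, adjusted p = 0.026). Gmfb, glia maturation factor beta, read 12231, 12096, 11544, 13357 and 10645 against 4105, 3033, 5353, 2895 and 7635 (log2 difference 1.47 ± 0.24, adjusted p = 0.0047). In each of them replicate 5 was the highest Rag2c/c p53-/- lymphoma, which for Chd8 reached into the Atm-/- values, and with Ddx3y as a covariate their adjusted p was 0.071, 0.11 and 0.062. The call of Chd8 was also lost without any one of Atm-/- replicates 4 and 5 and Rag2c/c p53-/- replicates 1, 3 and 4. These 3 genes were chosen after their values were seen.

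Far on the telomeric side, Dzip1 (ENSMUSG00000042156, chr14:118875520-118925314), a centrosomal zinc finger protein of the Hedgehog pathway, read 15, 48, 88, 36 and 36 in Atm-/- and 6313, 3691, 2477, 2300 and 2470 in Rag2c/c p53-/- lymphomas (log2 difference -6.34 ± 0.43, adjusted p = 9.82e-06), beside 3981 to 4801 in WT thymus. Its neighbour Dnajc3, a chaperone of the endoplasmic reticulum, read 1237, 2252, 2027, 1290 and 1434 against 5610, 3317, 3955, 3720 and 3682 (log2 difference -1.32 ± 0.21, adjusted p = 0.0035). Both were below WT thymus in the Atm-/- lymphomas, and Dzip1 by far more than the surrounding genes. Dnajc3 was chosen after its values were seen.

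**Figure D4:**
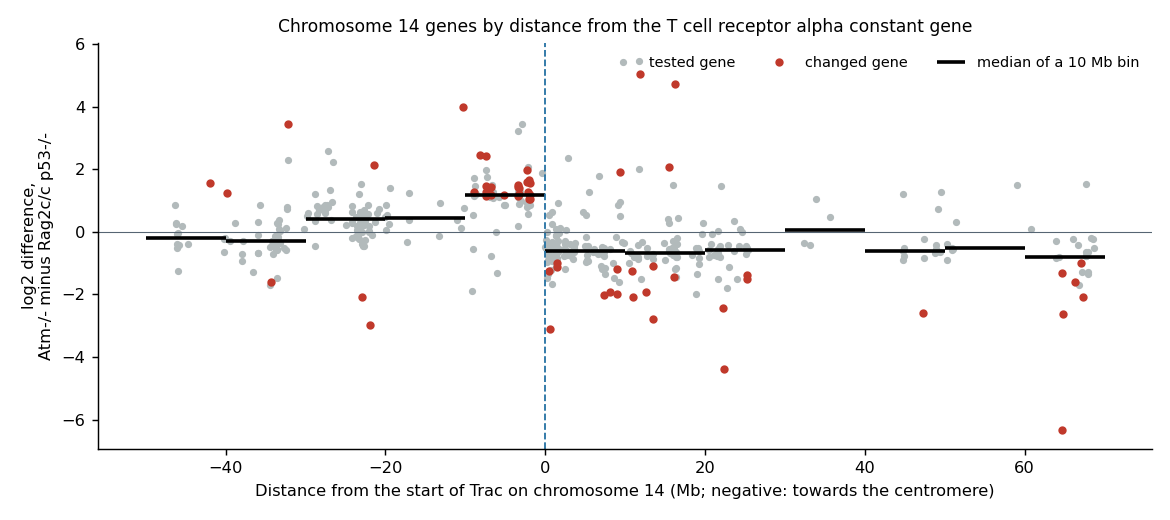
Log2 difference between Atm-/- and Rag2c/c p53-/- lymphomas of the tested genes of chromosome 14 against the distance in Mb of each gene's start from that of Trac (red points, changed genes; black bars, medians of 10 Mb bins relative to all genes). The median is 1.19 in the bin next to Trac on the centromeric side and -0.60 in the bin next to it on the telomeric side.

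On chromosome 4, 45 genes were lower and 12 higher in Atm-/- lymphomas among 896 tested, a share of 6.36% near the 5.25% of all genes. The chromosome was lower as a whole, with a median log2 difference of -0.35 relative to all genes. Its level relative to WT thymus was 0.02, 0.02, 0.16, 0.06 and 0.04 in Atm-/- and 0.53, 0.32, 0.38, 0.36 and 0.35 in Rag2c/c p53-/- lymphomas, so that it was the Rag2c/c p53-/- lymphomas that departed from WT. The groups of lymphomas did not overlap for 5 of the 19 chromosomes, and the medians of the 17 chromosomes other than 4 and 14 lay between -0.17 and 0.14. Chromosome 15, which carries Myc, was above WT in both groups, at 0.11 to 0.53 in Atm-/- and 0.25 to 0.56 in Rag2c/c p53-/- lymphomas.

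**Figure D5:**
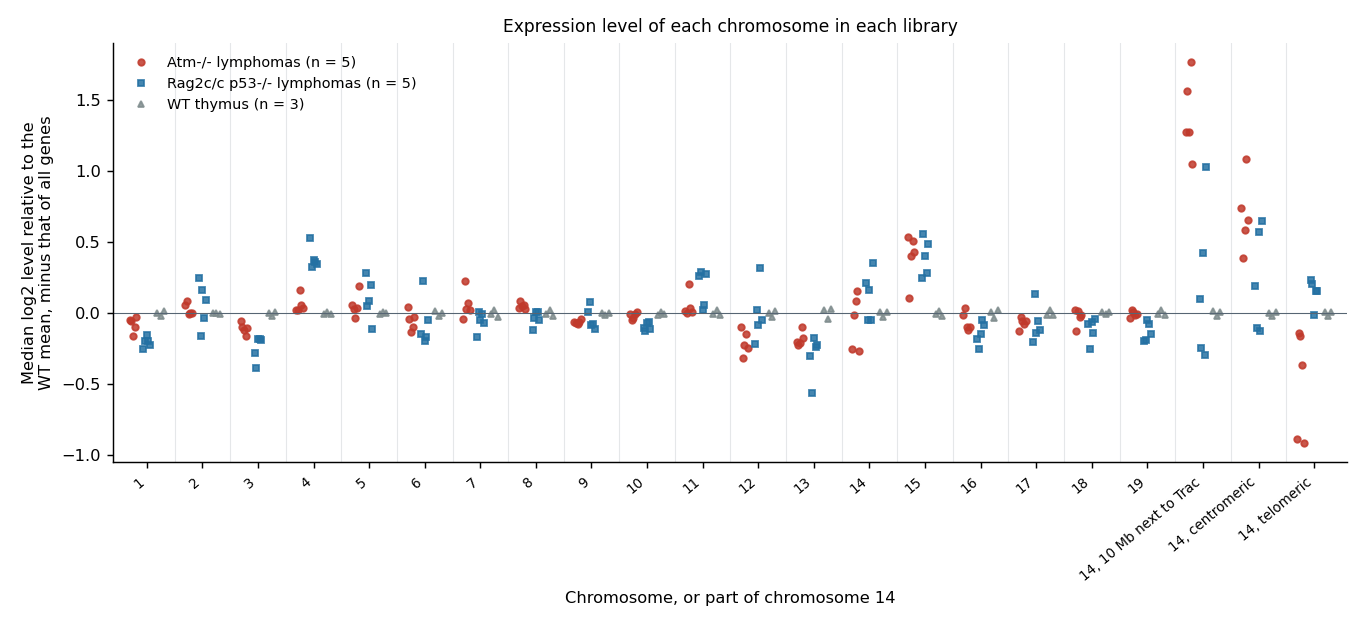
Median log2 level of the tested genes of each chromosome, and of 3 parts of chromosome 14 relative to Trac, in each library, against the WT mean and after subtraction of the median of all genes. On chromosome 4 the Rag2c/c p53-/- lymphomas (squares) lie at 0.32 to 0.53 above the Atm-/- lymphomas (circles) at 0.02 to 0.16, and next to Trac the Atm-/- lymphomas lie at 1.05 to 1.77.

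Over all 19 chromosomes, 13 runs of at least 3 neighbouring tested genes changed in the same direction, 7 higher and 6 lower in Atm-/- lymphomas. They included the Gimap, Gbp, St6galnac and Trim genes described above and the stretches of chromosome 14 that hold Gmfb, Chd8 and Mettl3, and Dzip1 and Dnajc3. On chromosome 12, Cdca4, Gpr132 and Jag2 were lower in Atm-/- lymphomas. Gpr132, a receptor of lymphocytes, read 1018, 1489, 1624, 1017 and 1599 against 3230, 3604, 6437, 8702 and 2180 (log2 difference -1.69 ± 0.34, adjusted p = 0.014), and Jag2, a Notch ligand, read 198, 103, 458, 45 and 462 against 1185, 598, 2027, 1333 and 874 (log2 difference -2.60 ± 0.61, adjusted p = 0.028). Cdca4 reached 12126 in Rag2c/c p53-/- replicate 4, against 2433 to 4588 in the other 4 and 1527 to 1872 in Atm-/- lymphomas (log2 difference -1.35 ± 0.35, adjusted p = 0.043). The call of Cdca4 was lost without any one lymphoma other than Rag2c/c p53-/- replicate 5, and that of Jag2 without any one of Atm-/- replicates 1 and 2 and Rag2c/c p53-/- replicates 1, 3, 4 and 5. With Ddx3y as a covariate none of the 3 was called (adjusted p of 0.10 to 0.22). These genes, too, were chosen after their values were seen.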

How the data were processed

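RNA-seq of 10 thymic lymphomas and 3 WT thymuses was analysed. The deposited values are a score: gene counts that the authors normalized and rounded to whole numbers, with STAR 2.4.0g1 and DESeq2 1.6.3 named in their processing notes for mm10 (GRCm38). The counting tool and its strand setting are not given in the sources used here. Because the values are no longer counts, log2(value + 1) was tested with limma 3.58.1 (R 4.3.3; trend, robust) in the 10 lymphomas alone. Genes were kept where 5 or more lymphomas reached 10. Some named genes are not reported here. Scaffold genes were left out with those of chromosomes X and Y. Depth was estimated from the step between low values, which gives the worth of 1 read (0.812 to 3.38 in the lymphomas).

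Genes were named by rule: among changed genes with non-overlapping groups, without receptor segments, pseudogenes and Gm or Rik names, the 12 highest, the 12 lowest and the 8 of lowest adjusted p; the altered genes and Rag1; changed members and the highest mean of each list; and the T-ALL gene highest in each lymphoma. Outside this rule, St6galnac1, Trim5, Trim34a, Trim12c, Gbp7, Wdfy1, Dnajc3, Mettl3, Chd8, Gmfb, Cdca4, Gpr132 and Jag2 were chosen after their values were seen. Uncalled list members such as Cdkn1a and Dtx1 were also printed outside the rule. Members and lists were chosen with earlier results of these data known. On simulated data with 13320 genes, 68% of genes changed by 1.5 on the log2 scale and 100% of those changed by 4 were called, with 9 calls among 13120 unchanged genes. Changes were placed only in genes above a minimum mean level, and independent normal noise was drawn for each gene. The simulation held no tumors that depart in many genes and no shifts of whole chromosomes. Its rates therefore need not hold for low genes or for these tumors. Alternatives covered scaling, filter, pseudocount, thresholds, weights, the libraries fitted and sex.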

Additional observations from a re-analysis of the deposited data

Results flagged for a closer look

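Dixon's ratio was taken on log2(value + 1), while the values printed here are normalized counts. Of 151 groups of 5 values of the genes named by rule, 10 held a lymphoma whose gap to the others passed Dixon's limit of 0.71, where chance gives about 1 in 20. In the Atm-/- lymphomas, Adam11 was low in replicate 1 (341, others 701 to 927), St6galnac2 in replicate 2 (84, others 485 to 566), Tagap1 in replicate 4 (226, others 272 to 282), and Rag1 and Xaf1 in replicate 5 (2383, others 5496 to 7116, and 406, others 549 to 600). Unc5a was high in Atm-/- replicate 3 (11, others 0 to 1) and Xrcc6 in replicate 4 (21818, others 15921 to 17410). In the Rag2c/c p53-/- lymphomas, Psrc1 was low in replicate 3 (166, others 288 to 321), Gimap7 in replicate 1 (22, others 93 to 108) and Bcl2 in replicate 5 (98, others 235 to 303). No lymphoma stood apart in more than 2 genes.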

How the results depend on the processing

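Against the 716 calls (327 higher, 389 lower), leaving out 1 lymphoma gave 409 to 646 calls, 154 to 306 higher and 216 to 399 lower. Array weights gave 1119 (501 and 618), a log2 threshold of 2 gave 425 (171 and 254) and Ddx3y as a covariate 246 (115 and 131). Chosen after seeing the data, the 7 lymphomas with Ddx3y gave 190 (45 and 145), and leaving out the shallowest lymphoma of each group gave 488 (213 and 275). Higher genes were 45.7% of calls, but 23.7% among the lymphomas with Ddx3y. Called list members were 23, and 10 with the covariate, 8 among lymphomas with Ddx3y, 43 with all 13 libraries, 46 with array weights, 15 at the threshold of 2 and 17 to 29 without 1 lymphoma. The range of chromosome medians was 0.501, and 0.339 without a filter, 0.552 among lymphomas with Ddx3y and 0.464 to 0.547 without 1 lymphoma. The median correlation within groups exceeded that between groups by 0.045, and by 0.015 without a filter. Of 44 named changed genes, 44 kept their direction and 24 their call under every alternative that could be computed. With the covariate 18 lost their call. Some of the 24 reached 10 only in their higher group, so they left the test when any lymphoma of that group was left out. Among these, 21 alternatives could be computed for Olfr315, Emx2 and Ifi202b. For Trim12a, Ddx43, Mboat2, Ryr2, Zfp125, Plekhh2 and Trim30d it was 22, against 28 for BC018473. Whether their calls depend on a single lymphoma of the higher group was not tested. The share of changed genes with WT nearer Rag2c/c p53-/- was 71.2% to 72.5% under the 5 other scalings and filters for which it was computed.

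Small differences that were never called changed sign: Notch1 to -0.31 with the covariate or the lymphomas with Ddx3y, -0.25 without the shallowest and -0.37 with array weights and -0.16 to 0.73 without 1 lymphoma. Ccnd3 went to -0.18, -0.18, -0.23 and -0.19 under these 4 in turn, -0.01 with size factors over the lymphomas and -0.24 to 0.24 without 1 lymphoma. With the covariate or the lymphomas with Ddx3y, Trbc2 went to -0.07 (-0.29 to 0.47 without 1 lymphoma) and Ly6c1 to -0.45. Tap2 went to 0.05 with array weights (-0.29 to 0.01) and Bcl2 to -0.03 without the shallowest (-0.2 to 0.83). Without 1 lymphoma, H2afx spanned -0.02 to 0.32, Tcf7 -0.04 to 0.15 and Bst2 -0.06 to 0.28.

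No paired analysis was possible because the replicate numbers were given in accession order and pair no lymphomas. Depth limits low genes: 1 read was worth up to 3.38 in Rag2c/c p53-/- replicate 2. Strain, sex and genotype cannot be fully told apart.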

Other observations

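Pseudogenes were called more often than protein-coding genes and mostly in one direction. Of 631 tested pseudogenes 70 were changed (11.1%), 59 higher and 11 lower in Atm-/- lymphomas, against 548 of 11967 protein-coding genes (4.58%). The WT mean lay nearer the Rag2c/c p53-/- mean for 65 of the 70. Most were processed pseudogenes, which are copies of transcripts inserted elsewhere, so that reads of their parent genes can map to them. The reference genome is that of C57BL/6, the Atm-/- mice were 129S6/SvEv, and the part of strain was not tested.

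Genes of non-T cells gave few calls, but several of their lists leaned towards Atm-/- lymphomas. Col1a2, a collagen chain of fibroblasts, read 4338, 2099, 4259, 6874 and 4807 in Atm-/- and 251, 243, 517, 272 and 505 in Rag2c/c p53-/- lymphomas (log2 difference 3.63 ± 0.33, limma adjusted p = 6.62e-05), beside 23 to 37 in WT thymus. It was the only called gene of 9 tested fibroblast genes (11.1%, against 5.25% of all tested genes). Of these 9, 8 had a positive log2 difference (median 1.27). The 10 listed fibroblast genes, tested or not, summed to 4713 to 21851 in Atm-/- and 2446 to 5108 in Rag2c/c p53-/- lymphomas. Col1a1, the partner of Col1a2, read 542, 715, 422, 5791 and 2047 against 416, 128, 631, 440 and 138 (log2 difference 1.97, adjusted p = 0.13). Sparc, Col3a1, Dcn and Fn1 had log2 differences of 1.92, 1.48, 1.27 and 1.22, Col6a1 and Pdgfrb of 0.50 and 0.35, and Pdgfra of -0.27, none of them called. Siglech, a gene of plasmacytoid dendritic cells, read 68, 57, 56, 36 and 65 against 15, 20, 16, 13 and 24 (log2 difference 1.62 ± 0.33, adjusted p = 0.014), all under the 143 to 249 of WT thymus. It was the only one of 8 dendritic genes called (12.5%), and with Ddx3y as a covariate its adjusted p was 0.15. No gene was called of 11 myeloid (10 positive, median 0.47, summed level 10876 to 18968 against 6737 to 13298), 7 B cell, 6 erythroid (915 to 6539 against 833 to 5137), 6 thymic epithelial (4 positive, median 1.1, summed level 210 to 786 against 300 to 1337) or 4 endothelial genes (3683 to 6445 against 2256 to 5988). These summed levels take in every list member of the deposited table, tested or not: 13 myeloid, 7 erythroid, 9 thymic epithelial and 8 endothelial genes. Lyz2, the myeloid gene with the highest mean, read 3085 to 5819 against 1780 to 4221. The part of such cells in other results was not tested.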
